A study of Mus musculus with 12 samples.

Results

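The STAT genes encode latent transcription factors that are phosphorylated by Janus kinases at cytokine receptors. They comprised 6 of the 48526 genes in the deposited count table, chosen by name: Stat2, Stat3, Stat4, Stat5a, Stat5b and Stat6. Their transcripts were measured by single-read RNA sequencing in bone marrow-derived macrophages of 3 female C57Bl/6J mice. Whole marrow was grown with 10 ng/mL of the macrophage growth factor mCSF for 7 days, and the cells then received no treatment, 100 ng/mL Wnt3a (a Wnt ligand), 100 pg/mL IL-4 (a type 2 cytokine), or both, for 16 hours. The study asked how Wnt signaling alters the macrophage response to IL-4, a response that runs through STAT6.

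In the cytoplasm a STAT protein docks on a phosphorylated receptor tail, is itself phosphorylated on a tyrosine, dimerizes and enters the nucleus. STAT2 pairs with IRF9 in the interferon response, STAT3 carries signals of the IL-6 and IL-10 families, and STAT4 is best known for IL-12 signaling in T and NK cells. The closely related STAT5A and STAT5B serve growth factors such as GM-CSF, and STAT6 serves IL-4 and IL-13. Phosphorylation, protein and splice isoforms were not measured here, so every value below is a transcript level of a whole gene.

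The columns labelled Wnt3a and Wnt3a+IL4 could not be compared directly because they shared reads. In each of the 3 mice, 0 of 48526 genes had a Wnt3a count outside 1 to 2 times its Wnt3a+IL4 count, against 6681 to 8625 genes when columns of different mice were paired. These parts were therefore solved for each mouse. The difference is the Wnt3a column minus the Wnt3a+IL4 column, and the remainder is 2 times the Wnt3a+IL4 column minus the Wnt3a column. Both parts come from columns labelled with Wnt3a, but the labels do not say which part received IL-4, so they are called difference and remainder throughout. Total counts were 13342492 to 17453377 per library for Untreated, IL-4, difference and remainder, with 3 libraries of each.

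All 9 macrophage marker genes were detected in each kind of library, with summed levels of 44300 to 68800 CPM (counts scaled to library size). Of 11 T and NK cell markers, 8 or 9 stood at 3 counts or fewer in each kind of library, all 3 Cd3 genes among them. Their sum was 0.515 to 0.967 CPM in Untreated, 1.08 to 1.41 with IL-4, 1.02 to 1.49 in the difference and 1.54 to 2.23 in the remainder. The 1 T and NK marker that passed the filter on low counts, Lck (7, 5 and 5 counts in Untreated), was called as higher in the difference (17, 13 and 13 counts) and in the remainder (16, 18 and 20), with log2 fold changes of 1.39 and 1.72. The 5 B cell markers used here summed to 76.8 to 84.9 CPM in Untreated, 34.1 to 46.2 with IL-4, 8.13 to 14.0 in the difference and 8.26 to 9.66 in the remainder, with Ms4a1 and Pax5 at 3 counts or fewer in each. The 6 dendritic cell markers summed to 1.09 to 1.83 CPM in Untreated, 1.73 to 2.04 with IL-4, 3.20 to 7.90 in the difference and 8.67 to 21.2 in the remainder. The 8 neutrophil markers summed to 39.5 to 49.5, 51.5 to 61.7, 29.2 to 46.2 and 26.4 to 30.7 CPM in the same order, with Ly6g at 3 counts or fewer in each, and the 7 stromal markers to 5.74 to 30.1 CPM. The part of these lists in the results below was not tested, and in bulk RNA fewer cells of a type and less RNA per cell cannot be told apart.

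The members lie in 3 places in the mouse genome (build mm10, equal to GRCm38; positions from the GENCODE annotation). Stat2 (ENSMUSG00000040033, chr10:128270559-128292849, plus strand) and Stat6 (ENSMUSG00000002147, chr10:127642986-127660957, plus strand) share a chromosome but are 609601 bases apart. Stat5b (ENSMUSG00000020919, chr11:100780731-100850724, minus strand), Stat5a (ENSMUSG00000004043, chr11:100859351-100885169, plus strand) and Stat3 (ENSMUSG00000004040, chr11:100885098-100939540, minus strand) form one cluster. Stat5b and Stat5a are 8626 bases apart, and the Stat5a and Stat3 gene ends share 72 exon bases on opposite strands. Stat4 (ENSMUSG00000062939, chr1:51987148-52107189, plus strand) stands alone but shares 1033 exon bases, 26.7% of its own, with Gm28177, a transcript of the same strand that held 0 to 2 counts in any library. Of the 50-base stretches of its exons, Stat4 had 21.7% that also occur in another gene, with Gm28177 sharing the most. Stat5a had 8.52% and Stat5b 11.0%, mostly in each other. Reads in all these stretches could not be assigned with certainty. The low Gm28177 count does not show that the Stat4 level was unaffected, and the effect was not tested.

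The 250 bases before the start site are shown for the 3 most abundant members per length in the difference and remainder libraries, because Stat2 and Stat3 changed there and Stat6 did not pass the test. The sequences are from RefSeq (build GRCm38.p6), 5′ to 3′ on the strand of the gene, and span chr10:128270248-128270497 (plus) for Stat2, chr11:100939541-100939790 (minus) for Stat3 and chr10:127642736-127642985 (plus) for Stat6. Capitals mark an interferon response element (GAAA, any 2 bases, GAAA) and a STAT element (TTC, any 4 bases, GAA), on either strand.
Stat2: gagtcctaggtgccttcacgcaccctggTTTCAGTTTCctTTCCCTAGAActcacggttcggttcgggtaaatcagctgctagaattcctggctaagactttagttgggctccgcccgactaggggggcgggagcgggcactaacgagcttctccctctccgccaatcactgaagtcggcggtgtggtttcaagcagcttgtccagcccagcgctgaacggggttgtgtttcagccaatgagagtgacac
Stat3: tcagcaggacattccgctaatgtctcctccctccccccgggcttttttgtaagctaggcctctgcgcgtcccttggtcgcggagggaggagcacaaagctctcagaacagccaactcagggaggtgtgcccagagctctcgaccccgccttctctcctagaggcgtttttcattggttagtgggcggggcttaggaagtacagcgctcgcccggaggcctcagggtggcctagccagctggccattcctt
Stat6: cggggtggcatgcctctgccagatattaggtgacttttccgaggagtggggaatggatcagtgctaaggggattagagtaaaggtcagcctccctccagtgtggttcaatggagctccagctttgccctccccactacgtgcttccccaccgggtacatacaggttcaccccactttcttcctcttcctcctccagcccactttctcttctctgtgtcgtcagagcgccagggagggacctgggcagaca
In Stat2 the interferon response element TTTCAGTTTC begins at position -222 and the STAT element TTCCCTAGAA at -210, counted from the start site, and they do not overlap. All 6 promoters were searched from 250 bases before to 50 after the start. Stat4, Stat5a and Stat5b have 2 RefSeq windows each, and only that nearest the annotated 5′ end of the gene was searched. Its start site lay 305 bases from that end for Stat5a and 143 bases for Stat5b. In the windows searched, the other 5 members held no match to these elements. No member matched the STAT element with a spacing of 3 bases or the TCF element CTTTGA. The same search over 32544 RefSeq promoters matched 3.45% for the interferon response element, 6.98% and 8.33% for the STAT elements with spacings of 4 and 3, and 16.0% for the TCF element. A match is a description of letters and not evidence of binding.

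Untreated macrophages expressed Stat6 most among the members, at 363.2 CPM before Stat3 at 169.6 CPM. Levels between genes are given as CPM per kb of exon, over the merged exons of all annotated transcripts of a gene. The gaps, order and shares per kb therefore depend on the annotation (9527 bases for Stat3, 4402 for Stat6). Stat6 stood at 82.5 ± 6.72 (SD, n = 3), then Stat3 at 17.8 ± 1.09, Stat2 at 16.9 ± 1.43 and Stat5b at 16.4 ± 1.2, whose ranges overlapped from each gene to the next. Stat5a followed at 5.65 ± 0.35 and Stat4 at 0.831 ± 0.125, each apart from its neighbor. With IL-4 the order of the middle group became Stat5b, Stat3 and Stat2, again overlapping. In the difference and remainder libraries Stat2 moved to the second place at 40.8 ± 7.30 and 46.5 ± 4.85, ahead of Stat3 at 27.4 ± 0.425 and 24.6 ± 0.415, and no neighbors in the order overlapped. As a share of the 6 members' summed level per kb, Stat6 made up 58.8% ± 1.71 in Untreated and 57.6% ± 0.758 with IL-4, but 45.3% ± 2.39 in the difference and 43.1% ± 0.696 in the remainder. The Stat2 share was 12.1% ± 1.68, 11.7% ± 0.681, 24.1% ± 3.54 and 27.3% ± 1.54 in the same order.

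**Figure D1:**
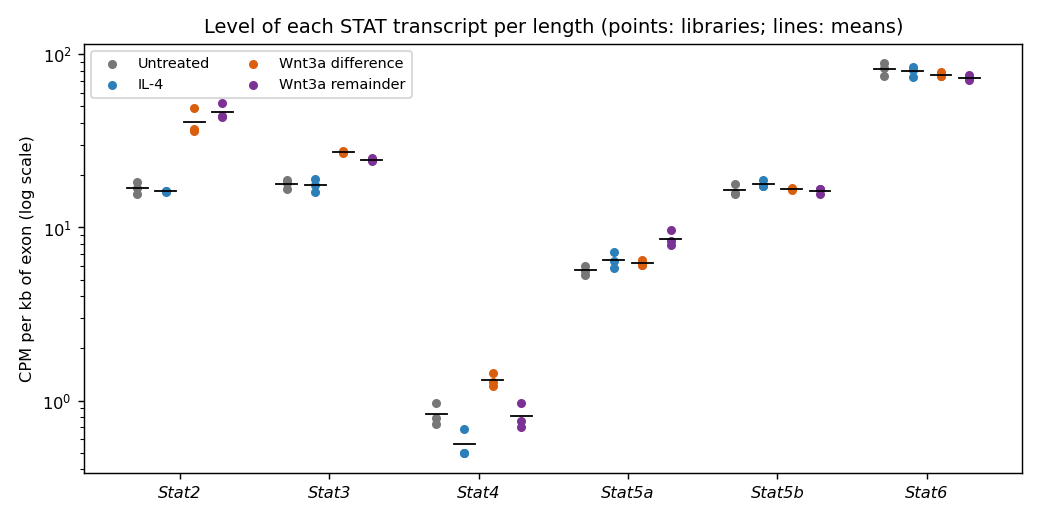
Level of each STAT transcript in CPM per kb of exon (log axis), with a point for each library and a line at the mean of 3 mice. Stat6 is highest and Stat4 lowest in every kind of library, and the Stat2 and Stat3 points of both Wnt3a parts lie above those of Untreated and IL-4.

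The 4 kinds of library were fitted together with edgeR's quasi-likelihood test, and a gene was called at a Benjamini-Hochberg adjusted p under 0.05 over 12421 tested genes. All 6 members passed the filter on low counts. The IL-4, difference and remainder libraries were all set against the same 3 Untreated libraries, so these comparisons are not independent of each other.

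IL-4 alone called none of the 6 STAT transcripts, against 3.40% of all tested genes called. DESeq2 also called 0, and 1 member, Stat4, had an unadjusted p under 0.05 by edgeR. Stat4 counts were 57, 44 and 60 in Untreated and 32, 30 and 37 with IL-4 (mice 1, 2 and 3), or 3.22 ± 0.486 and 2.17 ± 0.434 CPM. Its level was lower with IL-4 in 3 of 3 mice and the groups did not overlap, as for 9.02% of tested genes, yet the log2 fold change of -0.58 ± 0.21 (SE) had an adjusted p of 0.19. Stat6, which transmits the IL-4 signal, had 331.5, 390.1 and 367.9 CPM in Untreated and 371.9, 356.7 and 326.0 CPM with IL-4, and these values overlapped. Its log2 fold change was -0.05 with a 95% interval of -0.22 to 0.12. The intervals of Stat2 (-0.31 to 0.18), Stat3 (-0.18 to 0.14), Stat5a (-0.02 to 0.42) and Stat5b (-0.03 to 0.28) also included 0.

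Stat2, the partner of IRF9 in the interferon-activated complex, showed the largest changes of the family in the Wnt3a parts against Untreated. It had 109.1, 92.2 and 99.7 CPM in Untreated and 96.5, 95.2 and 96.2 CPM with IL-4. The difference libraries held 291.6, 219.0 and 214.6 CPM and the remainder libraries 308.6, 256.3 and 261.8 CPM. Each Wnt3a part was above every Untreated and IL-4 library, and mouse 1 was highest in both parts. Against Untreated alone, 19.5% of tested genes did so in the difference and 18.9% in the remainder. Stat2 was 2.41-fold higher in the difference (log2 1.27 ± 0.12 SE; edgeR adjusted p = 2.5e-06) and 2.75-fold higher in the remainder (1.46 ± 0.12; edgeR adjusted p = 5.3e-07) than in Untreated. Against IL-4 the log2 fold changes were 1.33 and 1.52. The remainder and difference overlapped, with a log2 fold change between them of 0.19 and an interval of -0.05 to 0.43. No alternative ended either Stat2 call against Untreated.

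Stat3, the factor of IL-6 and IL-10 family signals, rose in both parts with little spread. Its levels were 158.4, 178.9 and 171.4 CPM in Untreated, 182.1, 167.1 and 153.0 with IL-4, 257.3, 260.0 and 265.2 in the difference and 231.9, 232.8 and 239.2 in the remainder. Both parts lay above all Untreated and IL-4 libraries, where 19.5% (difference) and 18.9% (remainder) of tested genes lay above Untreated. The change was 1.54-fold in the difference (log2 0.62 ± 0.08; edgeR adjusted p = 3.7e-05) and 1.38-fold in the remainder (0.47 ± 0.08; edgeR adjusted p = 0.00037). All 3 remainder libraries were below all 3 difference libraries, as for 10.4% of tested genes, but this log2 fold change of -0.15 (interval -0.31 to 0.01) was not called, with an adjusted p of 0.29 by edgeR. A change of at least 1 on the log2 scale was not reached by Stat3 in either part.

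Stat4, a factor of IL-12 responses, was the least abundant member and the 1 whose call was least stable. Counts were 97, 77 and 68 in the difference and 44, 61 and 45 in the remainder, or 5.07 ± 0.438 and 3.15 ± 0.534 CPM. The difference libraries were above all Untreated, IL-4 and remainder libraries, whereas the remainder libraries overlapped with Untreated. Of tested genes, 19.5% lay above Untreated in the difference, and 10.4% lay lower in the remainder than in the difference. Stat4 was 1.57-fold higher in the difference than in Untreated (log2 0.65 ± 0.19; edgeR adjusted p = 0.025). The call was lost with total count scaling (edgeR adjusted p = 0.056), without any single mouse (0.079 to 0.17) and without Untreated replicate 1 or 2 or difference replicate 1 or 3 (0.054 to 0.092), with log2 fold changes of 0.54 to 0.80 in these fits. Against IL-4 it was 2.35-fold higher in the difference (log2 1.23 ± 0.20; edgeR adjusted p = 0.00048). The remainder differed from Untreated by -0.03 (interval -0.46 to 0.40) and from the difference by -0.69 (interval -1.11 to -0.27; edgeR adjusted p = 0.059). The summed T and NK cell markers were 0.515 to 0.967 CPM in Untreated and 1.02 to 1.49 CPM in the difference, with Lck called as higher and all 3 Cd3 genes at 3 counts or fewer, and their part in the Stat4 level was not tested.

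Stat5a, a factor of GM-CSF and related receptors, was called against Untreated in the remainder and not in the difference, and between the parts. It held 40.2, 42.8 and 37.8 CPM in Untreated, 51.7, 45.4 and 41.7 with IL-4, 43.3, 46.4 and 43.2 in the difference and 69.0, 56.2 and 59.3 in the remainder. The remainder libraries were above all others, with mouse 1 the highest. Against Untreated alone, 18.9% of tested genes lay above in the remainder. Stat5a was 1.53-fold higher in the remainder than in Untreated (log2 0.61 ± 0.10; edgeR adjusted p = 0.00043) and 1.39-fold higher than in the difference (0.47 ± 0.10; edgeR adjusted p = 0.013). The difference against Untreated gave 0.14 (interval -0.08 to 0.36), although its 3 libraries all lay above Untreated, as for 19.5% of tested genes. Against IL-4 the remainder was higher by 0.41 ± 0.10 (edgeR adjusted p = 0.0092), a call that was lost without mouse 3 (0.39; edgeR adjusted p = 0.15) and with the deposited columns as labelled (0.18; 0.091). The call between the parts was lost without mouse 1 (0.37; edgeR adjusted p = 0.09), mouse 3 (0.48; 0.23), difference replicate 3 (0.46; 0.059) or remainder replicate 1 (0.39; 0.057).

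Stat5b, the neighboring gene that encodes a near copy of STAT5A, passed no test. It held 86.6, 98.5 and 87.5 CPM in Untreated, 104.5, 96.4 and 96.5 with IL-4, 91.0, 93.4 and 92.8 in the difference and 92.0, 86.9 and 91.8 in the remainder, and both parts overlapped with Untreated. The log2 fold changes were 0.02 (interval -0.13 to 0.18) in the difference and -0.01 (-0.16 to 0.14) in the remainder. The ratio of Stat5b to Stat5a was also formed within each library, where the scaling cancels. Reads from the sequence that these genes share can still distort it. The log2 ratio of Stat5b to Stat5a counts was 1.17 ± 0.06 in Untreated, 1.10 ± 0.10 with IL-4, 1.06 ± 0.05 in the difference and 0.56 ± 0.12 in the remainder (SD, n = 3). Its log2 change against Untreated was -0.11 for the difference libraries and -0.62 for those of the remainder, lower in 3 of 3 mice in each (two-sided exact permutation p = 0.1 for each, the smallest that 3 against 3 libraries allow).

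Stat6 stayed the most abundant member in all 12 libraries and passed no test. It held 328.1, 350.3 and 331.7 CPM in the difference and 334.1, 313.2 and 322.0 in the remainder, overlapping with Untreated. The log2 fold changes were -0.11 (interval -0.28 to 0.06) and -0.17 (-0.34 to 0.00). With total count scaling both became calls, at -0.20 (edgeR adjusted p = 0.018) and -0.27 (0.0023), where the median of all tested genes lay at -0.10 and -0.13, and without mouse 1 the remainder gave -0.25 (0.048). The log2 ratio of Stat3 to Stat6 within a library was -1.10 ± 0.03 in Untreated and -1.07 ± 0.04 with IL-4, but -0.37 ± 0.06 in the difference and -0.46 ± 0.06 in the remainder. The ratio was thus 0.73 and 0.64 higher in the parts, in 3 of 3 mice each (two-sided exact permutation p = 0.1, the smallest possible), and 0.03 higher with IL-4 (p = 0.4).

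**Figure D2:**
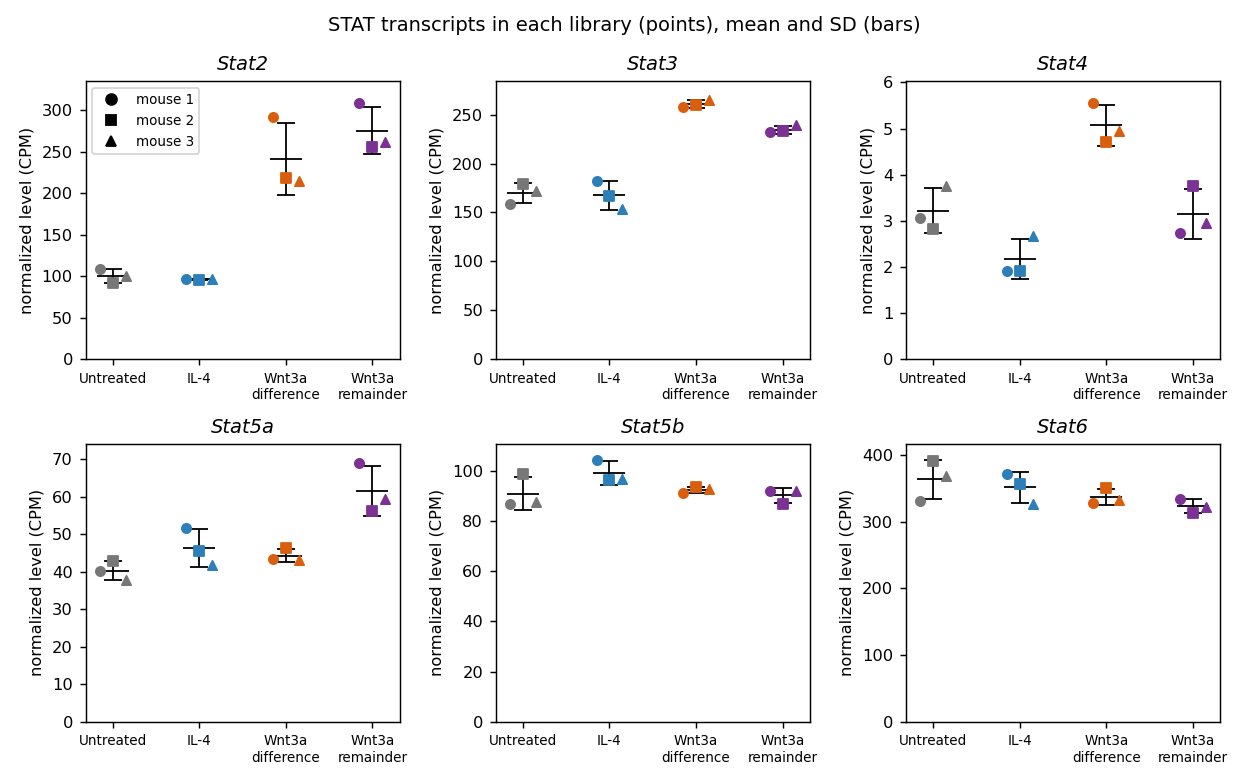
Level of each STAT transcript in CPM (linear axis from 0) in 12 libraries, with a point for each mouse and a bar for the mean ± SD of 3 mice. Stat2 and Stat3 stand higher in both Wnt3a parts, Stat4 in the difference and Stat5a in the remainder, while Stat5b and Stat6 overlap with Untreated.

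**Figure D3:**
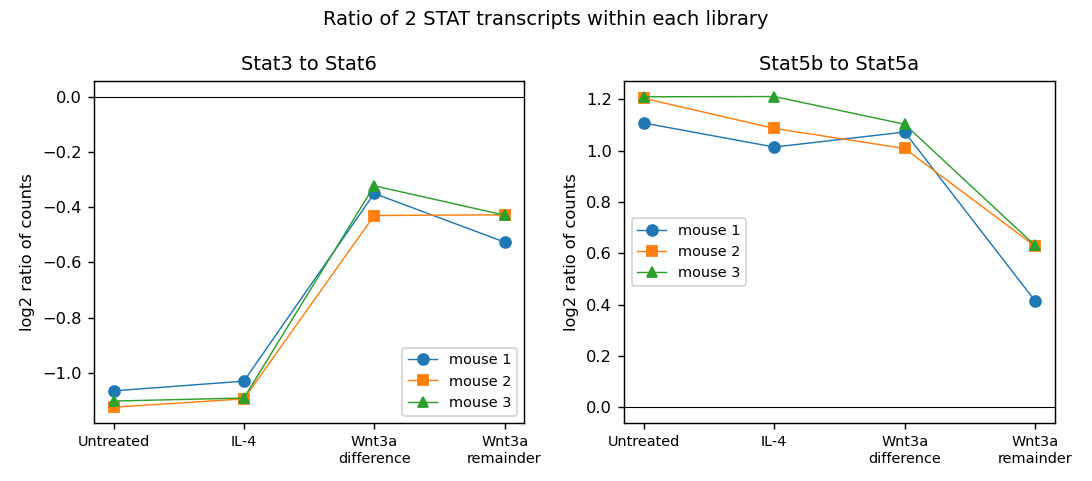
Log2 ratio of counts of a pair of STAT transcripts within each library, with a line for each mouse. Stat3 to Stat6 rises from about -1.10 in Untreated to -0.37 and -0.46 in the Wnt3a parts, and Stat5b to Stat5a is lowest in the remainder at 0.56.

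Counted over the family, 3 of 6 members were called against Untreated in the difference (Stat2, Stat3 and Stat4) and 3 in the remainder (Stat2, Stat3 and Stat5a), each of them higher. Over all tested genes 23.2% were called in the difference, 11.8% as higher, and 25.3% in the remainder, 13.6% as higher. Against IL-4 the same 3 members were called as higher in the difference and the same 3 in the remainder, where 20.3% of tested genes were called in both comparisons, 10.0% and 10.6% as higher. Between the parts 1 member, Stat5a, was called as higher, against 5.25% of tested genes called and 2.87% as higher. All 3 libraries of the difference lay above Untreated for 19.5% of tested genes, and those of the remainder for 18.9%. The family's median log2 fold change was -0.03 with IL-4, 0.38 in the difference and 0.23 in the remainder, beside medians between -0.02 and 0.00 for all tested genes.

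**Figure D4:**
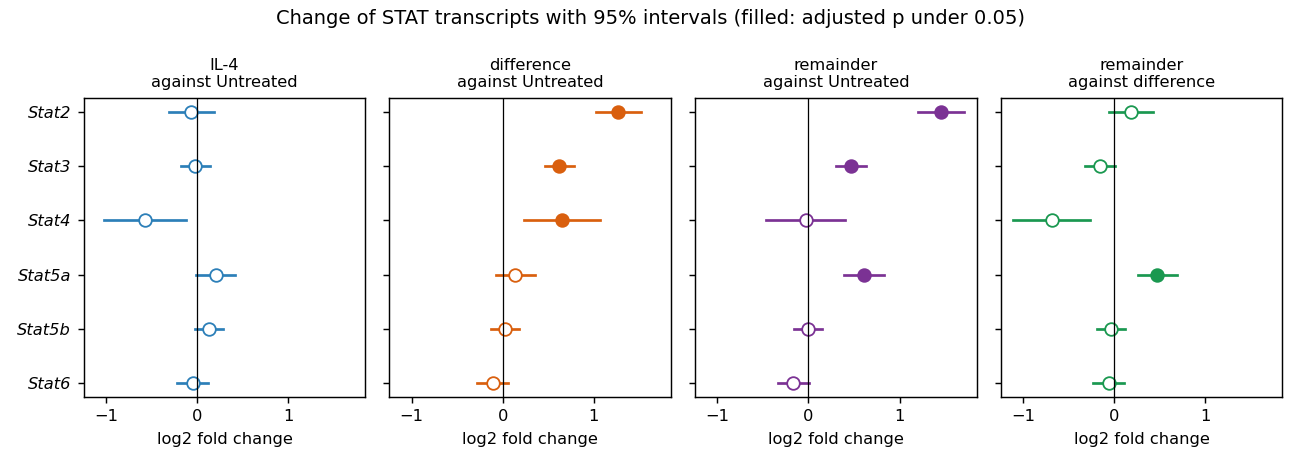
Log2 fold change of each STAT transcript with its 95% interval in 4 comparisons, filled where the adjusted p was under 0.05. Stat2 and Stat3 are filled in both parts against Untreated, Stat4 in the difference and Stat5a in the remainder and between the parts.

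Whether IL-4 acted differently on the STAT transcripts in the presence of Wnt3a depends on which part received IL-4. If the remainder did, the IL-4 effect with Wnt3a minus that without it was called for none of the 6 members (0.105% of tested genes called; 0 members at an unadjusted p under 0.05 by edgeR and 0 called by DESeq2), with Stat5a at 0.27 (interval -0.03 to 0.58) and Stat2 at 0.25 (-0.10 to 0.60). If the difference did, 2 members were called, against 7.33% of tested genes. Stat4 was then 1.26 ± 0.29 on the log2 scale (edgeR adjusted p = 0.014) and Stat5a -0.68 ± 0.14 (edgeR adjusted p = 0.009). Both calls were lost without mouse 1 or without mouse 3. The labels do not decide between the readings, and no library was assigned to a treatment by its values. Genes that respond to STAT6, described further on, were not alike in the parts. Arg1 had 0, 1 and 0 counts in the difference and 402, 97 and 114 in the remainder, and of 19 such genes 13 were higher and 0 lower in the remainder, whereas Retnla, at 535 to 781 counts with IL-4 alone, had at most 1 count in either part. Over all tested genes 2.87% were called as higher in the remainder than in the difference.

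The transcripts whose pattern over the 12 libraries was most like that of each member were found by the Pearson correlation of log2 CPM, which is a description, since the libraries share mice and treatments. Stat2 was closest to Zbp1, Irf7 and Dhx58 (r = 0.99 each), which are all interferon-induced genes. Stat3 was closest to Trp53inp2, Gys1 and Cfap43 (r = 0.98 each), and Gys1 encodes the muscle-type glycogen synthase. Stat5a was closest to Bhlhe40 (r = 0.98), a transcriptional repressor, then Baiap2 (0.96) and Ltc4s (0.95), the leukotriene C4 synthase. Stat4 was closest to Pira2 (0.95), Zfp658 (0.94) and Inpp4b (0.94). Stat6 was closest to Axin1 (0.97), a scaffold of the beta-catenin destruction complex, then Noc2l (0.94) and Aldh2 (0.93). Stat5b had the weakest match, 2310022B05Rik at 0.93, then Man2b1 (0.92) and Tnfrsf21 (0.88). Among the members themselves, Stat2 and Stat3 had the highest correlation (r = 0.91) and Stat2 and Stat6 the lowest (-0.65).

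Upstream of the STATs, cytokine and receptor transcripts changed in both directions. For the genes around the STATs, values given as higher or lower are log2 fold changes, and a pair of values stands for the difference and the remainder against Untreated unless other comparisons are named. Of 17 ligands only 8 were measured well enough to test, and 0, 2 and 2 were higher and 2, 3 and 3 lower with IL-4, in the difference and in the remainder, in that order. Ebi3, a subunit of IL-27, was lower in all 3 comparisons (-0.72, -0.85 and -1.01). Osm, encoding oncostatin M, was lower with IL-4 (-0.59) and in the difference (-0.42), while Il15 was higher in the difference (0.40). Of 23 tested receptor chains, 4, 11 and 12 were higher and 0, 6 and 4 lower in the same order. Beside the ligand and receptor counts, 3.40% of all tested genes were called with IL-4, 23.2% in the difference and 25.3% in the remainder. As higher, 11.8% of all tested genes were called in the difference and 13.6% in the remainder. Il2rg, the common gamma chain that pairs with the IL-4 receptor, was higher in the difference and the remainder by 1.46 and 1.5. Csf2rb, the beta chain of GM-CSF, IL-3 and IL-5 receptors, was higher by 0.66 with IL-4, 1.13 in the difference and 1.47 in the remainder. Its paralog Csf2rb2 followed at 0.62, 0.66 and 1.01, and reads may be split between them. Il27ra gave 2.0, 1.34 and 2.52 and Il21r 1.13 and 1.26 in the parts, whereas the interferon gamma receptor chain Ifngr1 (-0.65 and -0.87) and the IL-12 receptor chain Il12rb2 (-0.94 and -0.77) were lower there. Il10ra was lower in both parts (-0.33 and -0.51) and Il10rb in the difference (-0.48), with -0.21 in the remainder (edgeR adjusted p = 0.054).

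The chains that feed STAT6 and STAT3 directly were measured well. Il4ra, the IL-4 receptor alpha chain, held 153.7 ± 17.9 CPM in Untreated, 129.5 ± 8.05 with IL-4, 224.4 ± 14.3 in the difference and 189.1 ± 15.9 in the remainder. It was called as higher in the difference (0.55 ± 0.10) and the remainder (0.30 ± 0.10; edgeR adjusted p = 0.035), but not with IL-4. Il13ra1, the other chain of the type II IL-4 receptor, was higher in the difference (0.72) and lower in the remainder than in the difference (-1.08). Il6st, the gp130 chain shared by the IL-6 family, was higher with IL-4 (0.58 ± 0.09) and lower in the difference (-0.33 ± 0.09), with -0.04 in the remainder.

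Of the 4 Janus kinases, which phosphorylate the STATs, Jak2 changed most. It held 22.0 ± 5.73 CPM in Untreated, 29.4 ± 0.607 with IL-4, 70.0 ± 17.9 in the difference and 71.6 ± 22.1 in the remainder, with log2 fold changes of 1.67 ± 0.23 and 1.70 ± 0.23 in the parts. Jak3, the partner of the common gamma chain, was higher by 0.40 and 0.34, and Tyk2, a kinase of interferon receptors, by 0.30 in the remainder, with 0.16 in the difference (edgeR adjusted p = 0.13). Jak1 was the most abundant of them in CPM (294.8 ± 24.1 in Untreated) and was not called (0.20 and -0.03). With IL-4 alone 0 of the 4 kinases were called by edgeR. Among all tested genes 3.40% were called with IL-4, and 11.8% and 13.6% as higher in the difference and the remainder.

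Among 18 inhibitors of the pathway, 1 was higher with IL-4 (Socs5, 0.37), 5 were higher and 3 lower in the difference, and 5 were higher and 5 lower in the remainder. Over all tested genes 3.40% were called with IL-4, 23.2% in the difference and 25.3% in the remainder. The 1 call with IL-4 is therefore not read as a result on the inhibitors. Socs3, the feedback inhibitor of gp130 signaling, was higher by 1.88 ± 0.21 and 1.61 ± 0.21. Socs1 had 40, 23 and 23 counts in Untreated, 57, 48 and 45 with IL-4, 96, 49 and 48 in the difference and 330, 184 and 209 in the remainder. It was higher by 1.23 and 3.15 in the parts, and by 1.92 in the remainder than in the difference. Cish, a feedback inhibitor of STAT5 signals, had 25, 19 and 20 counts in Untreated and 276, 172 and 169 in the remainder, with 1.93, 3.33 and 1.41 in the same comparisons. Socs2, at 6 to 53 counts in any library, was higher by 1.69 and 2.46. Usp18, an inhibitor of type I interferon receptor signaling, was higher by 1.83 and 2.04. Sh2b3 (-0.53 and -0.46) and Socs6 (-0.56 and -0.38) were lower in both parts, Socs5 was lower in the parts (-0.37 and -0.40), and Ptpn6, the phosphatase SHP-1, was lower in the remainder (-0.39).

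Of 6 partners and coactivators, 0 were called with IL-4, 2 were called as higher in the difference, and the remainder called 3 as higher. None was lower by edgeR in these comparisons. Among all tested genes 3.40% were called with IL-4, and 11.8% and 13.6% as higher in the difference and the remainder. Irf9, the DNA-binding partner of STAT2, was higher by 0.45 and 0.56, and Nmi, an interferon-induced protein that binds STATs, by 0.72 and 0.71. Ndufa13, which encodes the STAT3-binding protein GRIM-19, was higher in the remainder (0.57).

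Downstream, genes known to respond to STAT2 and IRF9 were higher in both Wnt3a parts. Of 22 tested, 0 were called with IL-4, while 18 were higher and 0 lower in the difference and 18 and 0 in the remainder. With IL-4, 9 of them had an unadjusted p under 0.05 by edgeR, DESeq2 called 4 as lower, and the alternatives called 0 to 9. The median log2 fold changes were -0.34, 1.38 and 1.48. For this list and those that follow, the medians of all tested genes were -0.003, -0.0115 and -0.0235. Of all tested genes 3.40% were called with IL-4, and 11.8% and 13.6% as higher in the difference and the remainder. Irf7, a master regulator of interferon genes, was higher by 3.12 and 3.27, Oasl2 by 2.22 in each, Oasl1 by 2.17 and 2.54 and Ifi44 by 2.56 and 2.06. Between the parts 0 of the 22 were called by edgeR or DESeq2, 1 had an unadjusted p under 0.05, and the alternatives called 0 to 6.

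Genes known to respond to STAT3 went both ways. Of 21 tested, 4 were higher and 1 lower with IL-4, 12 and 6 in the difference and 11 and 6 in the remainder, with medians of 0.01, 0.44 and 0.30. The acute-phase gene Saa3 held 217, 181 and 138 counts in Untreated, 83, 144 and 184 with IL-4, 40374, 64400 and 52627 in the difference and 16069, 24008 and 12991 in the remainder. Its log2 fold change between the parts was -1.60 ± 0.26. Lcn2, the iron-binding lipocalin 2, was higher by 3.19 and 1.62 and Hif1a, the hypoxia factor, by 2.11 and 1.21. Bcl3, an atypical I-kappaB protein, was higher by 0.79 and 0.63, the kinase Pim1 by 0.44 and 0.46, and Il1rn, the IL-1 receptor antagonist, by 1.48 and 2.19. The growth genes Ccnd1 (-3.27 and -1.71) and Myc (-2.36 and -0.87) were lower in the parts and higher with IL-4 (0.95 and 0.77). Zfp36 was lower in both parts (-0.93 and -0.28), Cebpd was lower with IL-4 (-0.87) and in the remainder (-1.18), and Nfil3 was higher in all 3 comparisons (1.62, 1.78 and 2.62).

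Of the 10 tested genes known to respond to STAT5, 1, 5 and 6 were higher and 1, 4 and 2 lower in the same order, with medians of 0.02, 0.01 and 0.47. The members that were higher in the remainder included Cish, Socs1, Socs2 and Socs3, which are themselves inhibitors. Bcl2l1, the survival gene for BCL-XL, was lower in the parts (-0.83 and -0.84), as was the repressor gene Bcl6 (-0.59 and -0.74). Igf1, encoding a growth factor, was higher with IL-4 (0.98), lower in the difference (-0.97) and higher in the remainder (0.49), and it was 1.45 higher in the remainder than in the difference.

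Genes known to respond to STAT6 separated the parts. Of 19 tested, 11 were higher and 0 lower with IL-4, 4 and 6 in the difference, and 15 and 1 in the remainder. Between the parts 13 were higher in the remainder and 0 lower, against 2.87% of all tested genes called as higher. With genes at 3 counts or fewer set to their bound or left out, the medians were 2.03, -0.23 and 1.91 against Untreated and 1.9 between the parts, where the fitted values gave 2.14, 0.05, 2.16 and 1.92. Arg1, arginase 1, had 0, 2 and 1 counts in Untreated, 26, 26 and 19 with IL-4, 0, 1 and 0 in the difference and 402, 97 and 114 in the remainder. Retnla, encoding RELM-alpha, had 781, 535 and 618 counts with IL-4 but at most 1 count in any other library. Mrc1, the mannose receptor CD206, was higher by 2.14 with IL-4 and 1.5 in the remainder and lower in the difference (-0.83). Egr2 (2.38, 1.66 and -0.87), Flt1 (3.33, 2.25 and -2.27) and the lectin gene Mgl2 (3.81, 2.47 and -0.87, the last not called) gave the same order, and Clec10a was lower in the difference (-1.34). Ccl22, a CCR4 ligand at 4 to 8 counts in Untreated, was 5.33 and 7.22 higher in the parts, and Klf4 was higher with IL-4 (1.16), in the difference (0.85) and in the remainder (1.18).

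**Figure D5:**
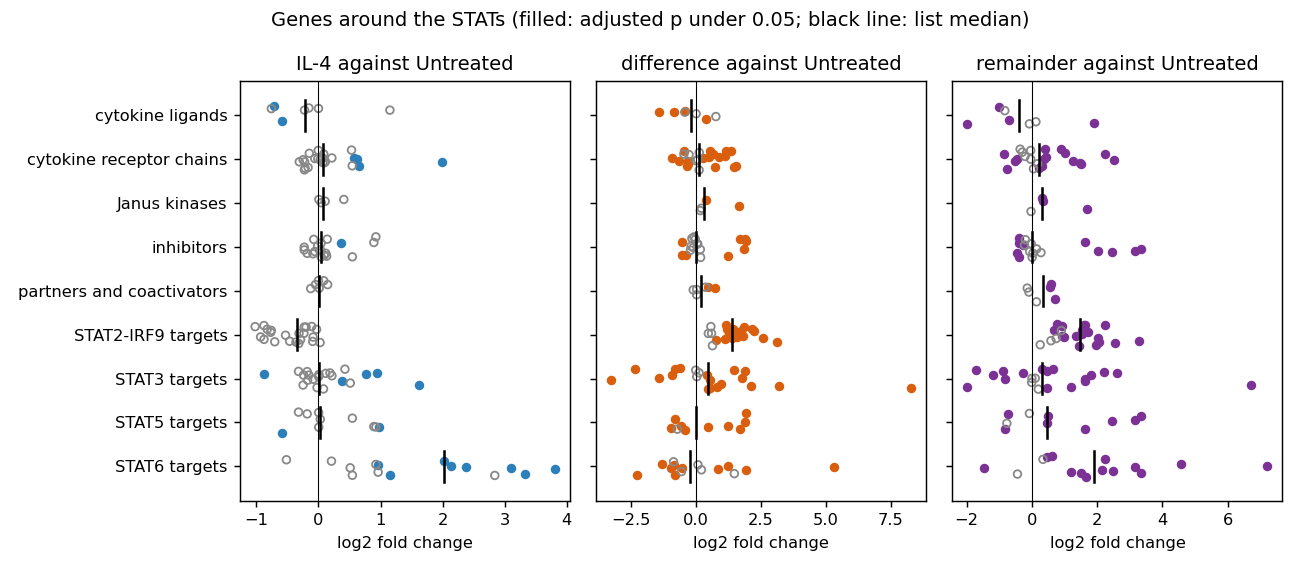
Log2 fold change of each tested gene in 9 lists around the STATs, in 3 comparisons with Untreated, filled where the adjusted p was under 0.05, with a black line at the list median and genes at 3 counts or fewer in a compared kind of library left out as points. The STAT2-IRF9 list lies to the right of 0 in both Wnt3a parts (medians 1.38 and 1.48), and the STAT6 list in IL-4 and the remainder (2.03 and 1.91).

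The known response lists were compiled from general knowledge and do not assign a gene to 1 STAT, since Cish, Socs1, Socs3 and others respond to several, and some genes stand in more than 1 list. All lists are described by counts and medians alone, and no level of a STAT transcript was tested as a cause of a change in these genes.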

How the data were processed

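RNA of 12 macrophage cultures, 4 from each of 3 mice, was sequenced as single reads. Per the methods and the submitters' processing notes, the authors checked reads with FastQC 0.11.7, trimmed with Trimmomatic 0.36, used STAR 2.6.0 and SAMtools 1.9 for alignment to mm10, and HTSeq 0.11.1 for counting per gene. The deposited values are raw read counts per Ensembl gene, and the strand setting is not given in the sources used here. Of 48526 identifiers 48058 (99.0%) had a symbol in GENCODE M21.

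Difference and remainder counts were computed per mouse as described. A gene was kept where 3 or more of the 12 libraries held 10 or more counts (12421 genes). Counts were scaled by TMM and fitted with edgeR 4.0.16 (R 4.3.3) in 1 quasi-likelihood model of 4 kinds of library without a block, followed by Benjamini-Hochberg adjustment at 0.05. SE is the log2 fold change divided by the square root of F, and intervals are 95%. CPM used TMM library sizes, with a prior count of 2 for log2 CPM. The labels tie the libraries of a mouse together, so the mouse pairs them. Over 18 pairs the correlation of deviations from the group mean was -0.42 to 0.45, and 6 exceeded 0.1. The 2 log2 ratios were tested by two-sided exact permutation (SciPy 1.17.1). DESeq2 1.42.0 was an alternative. On simulated counts for the difference against Untreated (12261 genes), 196 of 200 genes changed 2-fold were recovered (98%), with 9 false among 205 calls. The changed genes were drawn only from genes with high mean counts. The recovery therefore does not cover changes under 2-fold, such as those of Stat3, Stat4 and Stat5a against Untreated. It also does not cover counts as low as those of Stat4.

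Named genes were the 6 members, 14 fixed pathway genes, up to 3 highest and 3 lowest called genes per list at 8 CPM or more in the higher kind, and 3 genes of most similar pattern per member, with STAT genes left out of that search. Further values of those genes in other comparisons are given beside them. The members and lists were chosen with earlier results of these data known.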

Additional observations from a re-analysis of the deposited data

Results flagged for a closer look

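Under the reading in which the difference libraries received IL-4, the IL-4 effect with Wnt3a differed from that without it for 2 members by the interaction term of the edgeR fit. Stat5a differed by -0.68 on the log2 scale (edgeR adjusted p = 0.009). Its IL-4 effect was 0.20 without Wnt3a, and its level was 0.47 lower in the difference than in the remainder. Stat4 differed by 1.26 (edgeR adjusted p = 0.014), with an IL-4 effect of -0.58 without Wnt3a. This reading was not tested against the other, and beside it stand 0, 1 and 0 counts of the IL-4-induced gene Arg1 in the difference libraries and 402, 97 and 114 in the remainder, with Mrc1 (-0.83), Egr2 (-0.87) and Flt1 (-2.27) lower in the difference than in Untreated. Under the opposite reading neither term was called (Stat5a 0.27, edgeR adjusted p = 0.45, and Stat4 -0.11, 0.93).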

How the results depend on the processing

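Over 26 alternative settings 1236 values of the members' fold changes were recomputed. Of these 1188 kept their direction and their side of the threshold, 37 lost the call, 11 gained it and 0 reversed. The Stat2 and Stat3 calls against Untreated changed under none of them except that Stat3 did not reach an absolute log2 fold change of 1. With that added threshold 1 member was called in the difference and in the remainder against Untreated, 1 in the remainder against IL-4, 0 between the parts and 1 for the interaction with the difference as the IL-4 part. At an adjusted p of 0.01, 0 members were called between the parts and 1 for that interaction. Total count scaling raised the remainder against IL-4 to 5 members. With the deposited columns as labelled, 0 members were called between the Wnt3a columns and 0 for that interaction, Stat5a against Untreated became a call in the Wnt3a column (0.30, edgeR adjusted p = 0.0073), and the log2 ratio of Stat5b to Stat5a changed by -0.30 and -0.38 in place of -0.11 and -0.62. Leaving out mice or libraries gave 0 to 2 members between the parts, with 2 only without remainder replicate 2, and 0 to 2 for that interaction.

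With the mouse as replicate block, 0 of the 48 member calls changed. The block together with the deposited columns, chosen after seeing the data, gave 0 members between the Wnt3a columns and 0 for the interaction. Over all tested genes the number called ranged from 77 (without replicate 3) to 864 for IL-4 (422 as reported), 842 to 4435 for the difference (2884), 917 to 4280 for the remainder (3137), 0 to 1454 between the parts (652), 835 to 3587 and 733 to 3483 for the difference and remainder against IL-4 (2519 and 2521), and 0 to 575 and 265 to 1505 for the interaction under the first and the other reading (13 and 910). Of 1854 counts of called genes in the 9 lists around the STATs under these settings, 219 moved by more than 1.5 times. The STAT2-IRF9 list ranged from 17 to 22 of 22 in the difference and 13 to 21 in the remainder, and the STAT6 list from 5 to 15 of 19 with IL-4, 5 to 15 in the difference, 10 to 18 in the remainder and 0 to 15 between the parts. The cause of these shifts was not tested. With 3 mice per kind of library, and 30 to 97 counts for Stat4, changes near the size of its SE could not be resolved.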
